A study of Mus musculus with 12 samples.

Results

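Histone genes encode the proteins around which nuclear DNA is wound. The members described here are the 82 genes, of 20308 in the deposited table, whose symbol begins with Hist and a cluster number, or with H2af, H1f or H3f3. They were picked by symbol, but the family and the orphan gene Hist4h4 were selected on earlier results of the same genotype comparison. The fold changes and calls of that comparison are therefore given as a description of the fit over all genes, and nothing is supported with them.

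Gene expression was measured by sequencing polyadenylated RNA from urogenital sinus epithelium, the lining of the tube from which the prostate, urethra and bladder neck form. All embryos were of the strain C57BL/6J and of embryonic day 15.5. The 4 Control libraries were wildtype. In the 8 Dnmt1cKO libraries, a Cre recombinase driven by Shh had deleted Dnmt1, the enzyme that copies CpG methylation onto newly made DNA strands, in this epithelium. Trypsin separated the epithelium from the stroma, and embryos of a harvest were pooled into a lysate. Whether all libraries came from separate pools is not stated, so the spread behind each p-value is that between these libraries and may be technical.

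Replication-dependent histone genes lie in clusters, are transcribed mostly in S phase and make the bulk of the H1, H2A, H2B, H3 and H4 proteins. Their messages usually end in a stem-loop bound by the protein Slbp in place of a poly(A) tail, so a library of polyadenylated RNA holds only the part of them that was polyadenylated or carried over. Replacement variants such as H3f3a, H3f3b and H2afz are polyadenylated like other messages, are made throughout the cell cycle and enter chromatin outside replication.

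By symbol, 63 members are cluster genes (51 in the Hist1 cluster on chromosome 13, 10 in the Hist2 cluster on chromosome 3 and 2 in the Hist3 cluster on chromosome 11). Another 10 are replacement variants, 8 are genes known from germ cells, and Hist4h4 is an orphan H4 gene on chromosome 6, outside all 3 clusters. The annotated ends of the messages differed in frequency between these classes, with exceptions in each. The histone stem-loop motif was found in GENCODE M21 transcripts (build GRCm38) of 45 of the 64 cluster and orphan members, and of 1 of 10 replacement variants, H2afx. Some annotated transcripts without a match stop just after the coding sequence, such as Hist1h2ai (393 bases, 390 coding) and Hist1h4k (312 bases, 309 coding). A missing match therefore does not show that the message lacks the motif. Of 21901 GENCODE genes with a protein-coding transcript, 0.297% held the motif. The stem-loops of 5 members with counts are shown from the annotated sense strand, with the stem in capitals.
Hist4h4: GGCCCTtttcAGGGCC
Hist1h4i: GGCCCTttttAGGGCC
Hist1h1c: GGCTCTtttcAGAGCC
Hist3h2a: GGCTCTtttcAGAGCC
H2afx: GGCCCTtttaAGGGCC

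Hist4h4 and Hist1h4i, both H4 genes, have the same stem, as does the variant H2afx, and the H1 gene Hist1h1c and the H2A gene Hist3h2a share their whole stem-loop. In Hist4h4 the annotated transcript (2863 bases) runs on for 2445 bases after the stem-loop and ends with the cleavage signal AATAAA in its last 50 bases. That signal was found, on the sense strand, within the last 50 bases of a transcript of 14 of the 64 cluster and orphan members, of 9 of 10 replacement variants, and of 69.6% of all GENCODE genes with a protein-coding transcript. Among the 14 members with the signal, 6 had enough counts to be tested (Hist1h1c, Hist2h2be, Hist2h3c1, Hist3h2a, Hist3h2ba and Hist4h4), against 11 of the 50 without it. Hist2h3c1, and Hist1h4n among the 11, had no Control count and passed the filter through Dnmt1cKO alone. Hist4h4, on which the family was chosen, had 82.92 counts over the Control group and 140488 over Dnmt1cKO. Nothing is read from the 2 shares tested. The median annotated transcript was 1408 bases in the 14 and 498 bases in the 50. Whether the signal or the length bears on detection was not tested. A match describes the letters of the annotation and does not show where the messages in these libraries ended. A missing signal can likewise come from an annotated transcript that stops short.

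The sequence before the start of Hist4h4 is shown because the mutation removes a DNA methyltransferase, whose substrate is the CpG dinucleotide. The 250 bases upstream of the RefSeq start (build GRCm38.p6, minus strand, chr6:136804432-136804681) are set beside those of Hist1h4i, the cluster H4 gene with the highest mean level in these libraries (minus strand, chr13:22041363-22041612). Both are written 5′ to 3′ with each CG in capitals.
Hist4h4: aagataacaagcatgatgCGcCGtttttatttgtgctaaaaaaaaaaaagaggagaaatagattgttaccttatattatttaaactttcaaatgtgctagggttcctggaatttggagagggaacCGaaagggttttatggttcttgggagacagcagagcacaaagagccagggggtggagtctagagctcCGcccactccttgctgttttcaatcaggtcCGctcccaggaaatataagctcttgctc
Hist1h4i: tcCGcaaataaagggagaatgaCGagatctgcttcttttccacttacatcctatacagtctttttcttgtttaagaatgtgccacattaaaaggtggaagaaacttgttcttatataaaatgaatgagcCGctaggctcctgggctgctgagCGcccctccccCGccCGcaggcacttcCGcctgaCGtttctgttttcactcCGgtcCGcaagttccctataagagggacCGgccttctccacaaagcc

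The Hist4h4 stretch holds 5 CpG (observed to expected ratio 0.448) and the Hist1h4i stretch 11 (0.745). The median was 10 CpG over the 58 cluster genes, and also over the 11 cluster H4 genes, with a RefSeq promoter, 24 over 9 replacement variants, 3.5 over 8 germ-cell members and 6 over all 27025 RefSeq promoters, of which 55.5% had at least as many as Hist4h4. The core promoter word TATAAA, searched on both strands, occurred in 46.6% of cluster promoters, 54.5% of cluster H4 promoters and 13.0% of all promoters. The word CCAAT, searched on both strands, occurred in 82.8%, 27.3% and 34.5% of the same sets. Neither word is in the Hist4h4 stretch, and methylation was not measured in these libraries.

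Total expected counts per library, which are RSEM's estimates of reads per gene, were 543591 to 7577706 in Control and 4007533 to 11970907 in Dnmt1cKO. Levels are given as CPM, counts scaled to a common library total adjusted by TMM, which evens out the bulk of genes, and a gene was called at an adjusted p under 0.05 in edgeR's quasi-likelihood test over 12761 genes. Dnmt1 itself was at 164, 114, 237 and 2.84 CPM in the libraries labelled Control 1 to 4, against a lowest, median and highest of 22.8, 50.6 and 97.0 CPM in Dnmt1cKO. Control 1 to 3 lay above every Dnmt1cKO library. The library labelled Control 4 lay below all of them and so went against its label, at the lowest depth of the series. Its 2.84 CPM came from 1 expected count, and Hira, Daxx, Chaf1b and H2afx had no count there. Whether label or depth lies behind this was not tested. The log2 fold change of Dnmt1 was −1.29 ± 0.63 (SE), with an adjusted p of 0.284 in edgeR, so Dnmt1 was not called. It was also not called in 12 of the 12 fits that each left out a library. All 10 urogenital epithelium markers were tested, and their sum was 3729 to 7682 CPM in Control 1 to 3, 25322 CPM in the library labelled Control 4 and 4683 to 7740 CPM in Dnmt1cKO. Of these 10, 4 had a positive and 6 a negative log2 fold change (median −0.30), and 0 were called (lowest adjusted p 0.0615, edgeR). Of the 10 stroma markers 9 were tested and 0 were called, where 1.03% of all genes tested were called higher and 1.55% lower. All 9 had a negative log2 fold change, against 5446 of 12761 genes tested, with a median of −1.39, beside 0.22 over all genes. The stroma sum was 1268 to 9832 CPM in Control and 265 to 6230 CPM in Dnmt1cKO. The sums of endothelium, immune, erythroid and neural and glial markers were highest in Control 3 (142, 211, 3446 and 360 CPM). They were at most 57.6, 54.1, 760 and 230 CPM in Dnmt1cKO. Of their tested genes 0 were called, against the same 1.03% and 1.55% of all genes. Positive and negative log2 fold changes numbered 2 and 3 for endothelium, 1 and 3 for immune and 2 and 2 for erythroid markers. For neural and glial markers they numbered 0 and 4. None of 33 listed RNAs that normally lack a poly(A) tail was among the table's symbols, so how far such RNA passed the selection was not tested.

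Between 13 and 32 of the 82 members had a count in a Control library and between 15 and 39 in a Dnmt1cKO library, with the lowest number in the shallowest library. Of the 82 members 64 had a count in some library and 27 passed the filter on low counts, which a gene high in 1 group could pass through that group alone. In edgeR's test 1 of the 27 was called higher in Dnmt1cKO and 0 were called lower, against 1.03% and 1.55% of all genes tested. At an unadjusted p under 0.05 the numbers were 4 above and 1 below Control of 27, against 8.19% and 9.54% of all genes tested. Every Dnmt1cKO library lay above every Control library in 2 members, Hist4h4 and the H1 gene Hist1h1c, and below in 0, against 2.59% and 0.486% of all genes tested. Nothing is read from these shares, since the family was chosen on this contrast.

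Hist4h4, which encodes histone H4 (chr6:136801553-136804415, minus strand, GRCm38), was nearly silent in Control epithelium and abundant in every Dnmt1cKO library. It was at 5.90, 3.03, 19.6 and 0 CPM in Control 1 to 4, from 47.9, 9.49, 25.53 and 0 expected counts. In Dnmt1cKO it was at 1046, 2533, 2726, 1320, 1409, 3215, 1580 and 942 CPM in libraries 1 to 8. The groups did not overlap, and the lowest Dnmt1cKO library stood 48.1-fold above the highest Control library. The 0 in the library labelled Control 4 allows up to 8.53 CPM (3 counts in that library, counting error only). Group means were 7.13 ± 8.65 CPM (SD, n = 4) and 1846 ± 855 CPM (SD, n = 8), and the fitted log2 fold change was 7.92 (SE 0.68). The gene was called higher, and 75 called genes had a larger log2 fold change.

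Among Dnmt1cKO libraries Hist4h4 varied 3.41-fold from lowest to highest, with a coefficient of variation of 46.3%. It was lowest in Dnmt1cKO 8 and highest in Dnmt1cKO 6, which carry the same code 7 in their descriptions. Within the 4 codes that both groups hold, the difference in mean log2(CPM + 2) was 8.43 (code 4), 8.04 (code 5), 6.03 (code 6) and 9.72 (code 7, against the library labelled Control 4). Without Control 3 and the library labelled Control 4 the log2 fold change was 8.68, Hist4h4 was again the member called higher, and 0 members were called lower, where 0.322% and 0.0143% of 13990 genes were called. Limma-voom with sample quality weights gave a log2 fold change of 8.38 with an adjusted p of 0.134, and there the gene was not called. In Dnmt1cKO 6, with the most Hist4h4, the stroma marker sum was 265 CPM, the lowest of the 12 libraries, while Dnmt1cKO 2, with a similar level to Dnmt1cKO 3, had the highest stroma sum of its group (6230 CPM against 400 CPM). The part of stroma in the Hist4h4 level was not tested. In RNA pooled from many cells, more cells with a message and more message per cell cannot be told apart.

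**Figure D1:**
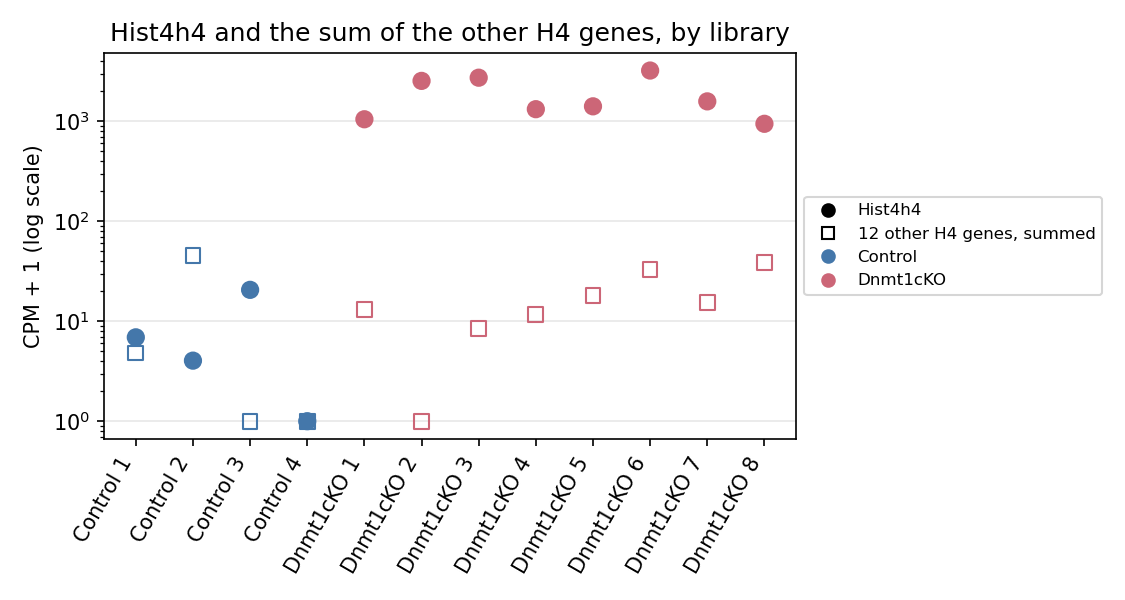
CPM + 1 on a log axis for Hist4h4 (filled circles) and for the sum of the 12 other H4 genes (open squares) in each of the 12 libraries, coloured by group. Hist4h4 lies between 942 and 3215 CPM in Dnmt1cKO and between 0 and 19.6 CPM in Control, whereas the sums of the other H4 genes overlap between groups.

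Reads of near-identical H4 genes can be split wrongly between them, so the H4 sequences were compared. The coding sequence of Hist4h4 was 85.4% to 87.1% identical to those of the 12 cluster H4 genes (median 86.4%), whereas the cluster genes were 88.0% to 100% identical to each other (median 94.7%, 66 pairs). Within the RefSeq span of the gene (chr6:136803993-136804431) 0 of 374 stretches of 50 bases occurred in a transcript of any other gene. In the longer GENCODE transcript, 229 of 2440 stretches beyond that span occurred in transcripts of 28 other genes, the first from base 1981. Which of these gene models was counted is not given in the sources used here, nor whether strand was used. With all H4 genes summed into 1 feature, an alternative added after the data were seen, the log2 fold change was 6.51.

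The 12 cluster H4 genes held few counts in both groups, and 3 of them were tested. Their summed level was 3.81, 44.2, 0 and 0 CPM in Control 1 to 4 and had a lowest, median and highest of 0, 13.2 and 37.4 CPM in Dnmt1cKO. The groups overlapped. Hist4h4 made up 60.7%, 6.80% and 100% of all H4 counts in Control 1 to 3, with no H4 count at all in the library labelled Control 4, and 96.2% to 100% in Dnmt1cKO.

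Hist1h4i was at 2.95, 6.41, 0 and 0 CPM in Control and at 0, 5.22 and 14.1 CPM (lowest, median, highest) in Dnmt1cKO, with a log2 fold change of 1.19 ± 1.45 (SE) that did not pass the test. Hist1h4b reached 14.2 CPM in Control 2 and 27.1 CPM in Dnmt1cKO 8, and its log2 fold change was 0.14, and −0.69 without Control 3 and the library labelled Control 4. Hist1h4n had no count in Control and was at 0, 1.68 and 16.6 CPM in Dnmt1cKO, with a count in 7 of 8 libraries. Without a Control count, Hist1h4n passed the filter on low counts through Dnmt1cKO alone. Pooled over libraries it was at least 20.1-fold higher in Dnmt1cKO, taking 3 counts over the Control group as the floor. That bound covers counting error only and leaves out the spread between libraries, and edgeR's adjusted p was 0.127. The bound was 8.05-fold without Control 1, the deepest Control, and 11.6-fold without Dnmt1cKO 6, which held 50.2% of the counts. Of its stretches of 50 bases, 85.6% also occur in other genes' transcripts, so its counts are uncertain.

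Cluster genes of the other types were sparse. Of the 63 cluster members 52 had a count in some library and 16 were tested. In either direction 0 of the 16 were called, against 1.03% higher and 1.55% lower over all genes tested. With 16 genes, nothing is read from this 0. The median log2 fold change of the 16 was 1.12 (range −2.15 to 7.89), beside 0.22 over all genes tested. The 2 tested members that had no Control count lie above the cluster median also at their lower bounds (4.33 and 3.52). Setting them there could therefore not move the median from 1.12. Of the 39 cluster members with at least 20 counts in all, 21 had more than 50% of their counts in a single library. The median share of the top library was 52.8%, against 15.8% for the 10 replacement variants, none of which passed 50%.

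The gene that led the cluster counts changed from library to library. Hist2h2be held 64.4% of the cluster counts in the library labelled Control 4, Hist1h3b 57.2% in Control 3 and Hist1h2bj 61.5% in Dnmt1cKO 2, and these 3 genes were picked out after their values were seen. Hist1h3b, an H3 gene, had all of its 114.92 counts in Control 3. A median of 57.0% of a cluster transcript's stretches of 50 bases occurred in another gene's transcript, on either strand. Such genes were not limited to histone copies. More than 50% was shared in 34 of 63 cluster members, against 1 of 10 replacement variants (H2afz). The split of counts between these members and the genes they share stretches with is therefore uncertain.

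**Figure D2:**
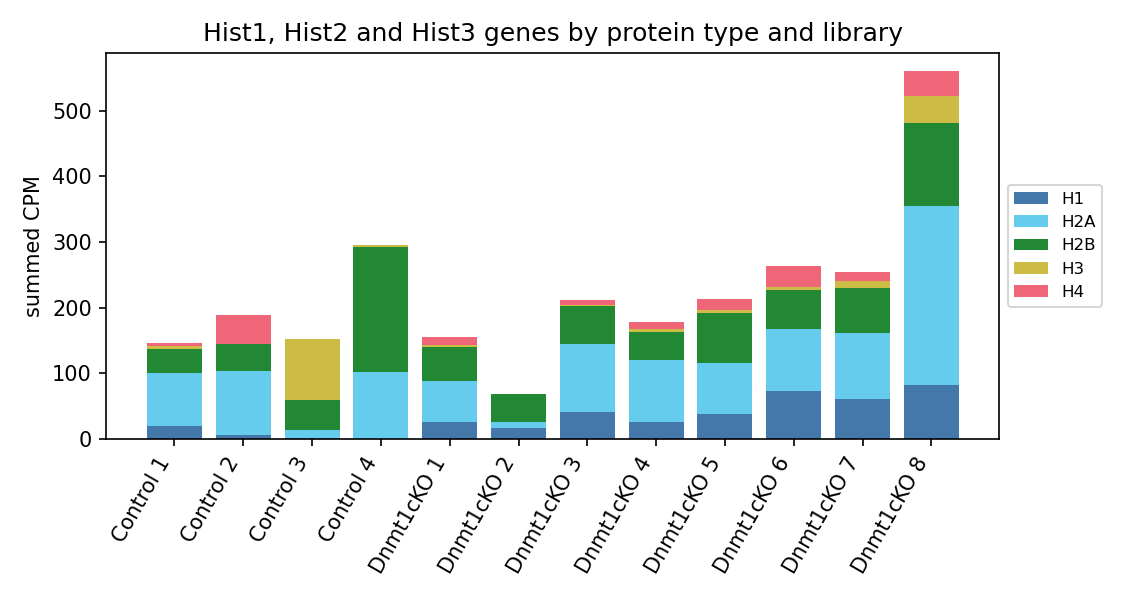
Summed CPM of the 63 Hist1, Hist2 and Hist3 cluster genes in each library, stacked by protein type from H1 at the base to H4 at the top. The totals run from 67.6 CPM (Dnmt1cKO 2) to 559.9 CPM (Dnmt1cKO 8), and the types that fill the bars differ between Control libraries.

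Summed over all types, cluster genes were at 145, 189, 152 and 296 CPM in Control 1 to 4 and at 67.6, 213 and 560 CPM (lowest, median, highest) in Dnmt1cKO, and the groups overlapped. The sum was highest in Dnmt1cKO 8 and next highest in the library labelled Control 4.

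H1 proteins, the linker histones, bind DNA between nucleosomes. The 5 cluster H1 genes, which leave out the replacement variants H1f0 and H1fx, summed to 20.04, 5.06, 0.75 and 0 CPM in Control. In Dnmt1cKO these 5 summed to 16.4, 39.3 and 82.1 CPM, and only Control 1 reached into that range. Hist1h1c accounted for most of this. It was at 15.9, 5.06, 0 and 0 CPM in Control 1 to 4 and at 16.4, 36.7 and 65.1 CPM (lowest, median, highest) in Dnmt1cKO. The groups did not overlap, but the gap between Control 1 and the lowest Dnmt1cKO library was small. Its log2 fold change was 2.72 ± 1.01 (SE) with an adjusted p of 0.142 in edgeR.

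DESeq2 called Hist1h1c higher (2.60, adjusted p 0.0129) and Hist2h2be lower (−3.24, adjusted p 0.0172), making 2 members higher and 1 lower where it called 3.82% and 8.07% of all genes. Without Control 1, edgeR called Hist1h1c (4.14, adjusted p 0.0330) and the H2B gene Hist1h2bc (6.46, adjusted p 0.0480) as well as Hist4h4. Within codes the difference for Hist1h1c in log2(CPM + 2) was 1.85, 4.25 and 4.90 for codes 5 to 7, and lower but positive for code 4. Hist1h1d and Hist1h1b, the other tested cluster H1 genes, stayed at or under 4.89 CPM in every library. Their log2 fold changes of 0.77 and 1.05 were not called. With Control 1 left out these were 2.63 and 5.96, again not called.

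Of the 6 tested H2A cluster genes, 3 had a positive and 3 a negative log2 fold change. Hist3h2a, from the small Hist3 cluster, was at 27.7, 3.71, 5.28 and 2.84 CPM in Control 1 to 4 and at 2.47, 35.0 and 79.6 CPM in Dnmt1cKO. Control 1 and Dnmt1cKO 2 each lay with the other group, and the log2 fold change was 1.84 ± 0.93 (SE) with an adjusted p of 0.303 in edgeR, and 3.20 with an adjusted p of 0.0631 without Control 1. Hist2h2aa2 was at 10.6, 19.9, 0 and 0 CPM in Control and at 0, 24.9 and 57.6 CPM in Dnmt1cKO (log2 fold change 1.51, not called), and every 50-base stretch of its transcript occurs in another gene. Hist1h2ag had no count in Control 1 and Control 3 but 52.9 and 71.1 CPM in Control 2 and the library labelled Control 4, and it ranged from 0 to 74.7 CPM in Dnmt1cKO.

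Among H2B genes, Hist2h2be went the other way from Hist1h1c. It was at 9.34, 40.8, 0.75 and 191 CPM in Control 1 to 4 and at 0.22, 13.5 and 25.3 CPM in Dnmt1cKO. Its log2 fold change was −2.15 ± 0.95 (SE), with an adjusted p of 0.225 in edgeR, and it was −0.28 without the library labelled Control 4. No 50-base stretch of Hist2h2be occurs in another gene. Hist1h2bc was at 13.5, 0, 0.75 and 0 CPM in Control and at 0, 24.0 and 47.9 CPM in Dnmt1cKO (log2 fold change 2.52 ± 1.31 SE, not called), and Dnmt1cKO 2 and 8 lay within the Control range. Hist3h2ba was highest in Control 3 (44.5 CPM) and Dnmt1cKO 8 (26.8 CPM), with a log2 fold change of −0.90 that turned to 1.15 without Control 3 and the library labelled Control 4.

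Of the 12 H3 cluster genes, 1 was tested. Hist2h3c1 had no count in Control and was at 0, 1.52 and 8.23 CPM in Dnmt1cKO, with a count in 7 of 8 libraries. Without a Control count, Hist2h3c1 also passed the filter on low counts through Dnmt1cKO alone. Pooled over libraries it was at least 11.4-fold higher against a floor of 3 counts over the Control group (4.58-fold without Control 1). This bound covers counting error only and leaves out the spread between libraries, and edgeR's adjusted p was 0.163. All of its 50-base stretches occur in another gene's transcript, so the copy is uncertain.

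**Figure D3:**
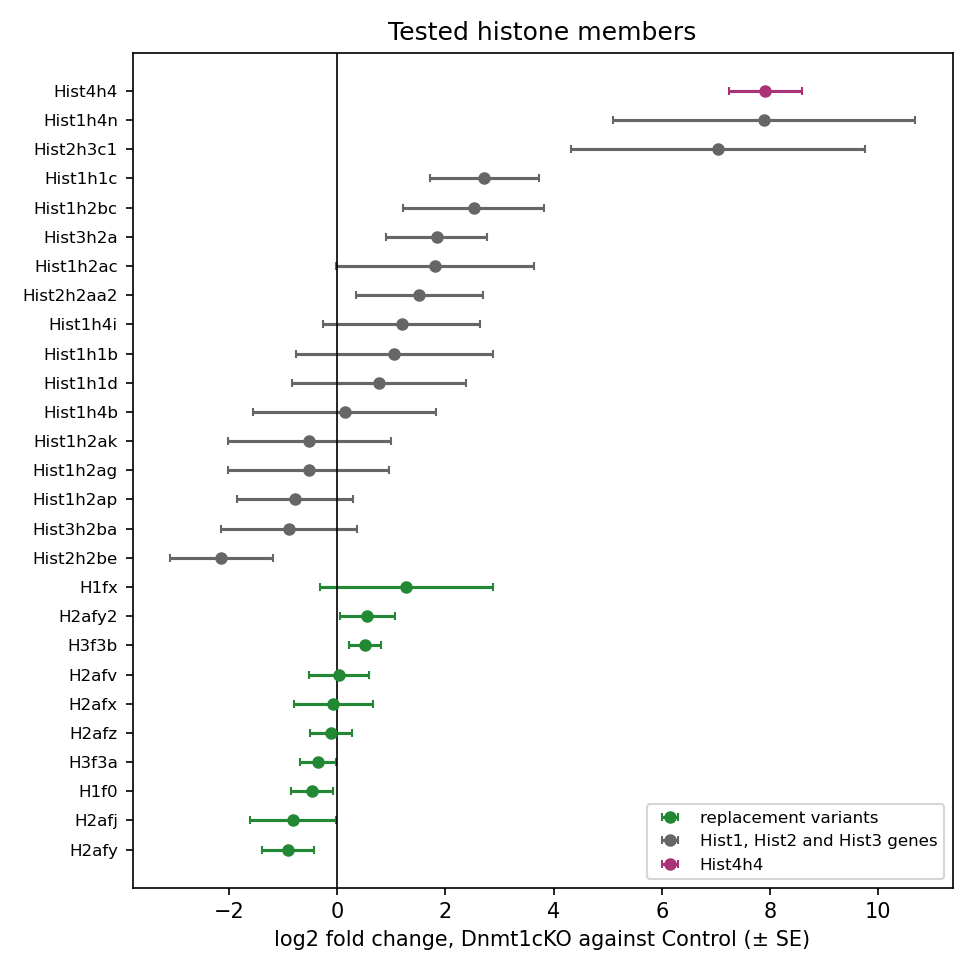
Log2 fold change of Dnmt1cKO against Control with its SE for the 27 tested members, grouped as Hist4h4, cluster genes and replacement variants. Hist4h4 (7.92) has a narrow interval beside Hist1h4n (7.89) and Hist2h3c1 (7.04), whose values rest on Control groups without a count and depend on the prior count of the fit.

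The replacement variants carried most histone counts in every library. All 10 were tested and 0 were called in either direction, against 1.03% called higher and 1.55% called lower of all genes tested. The groups overlapped in each of the 10. Over all genes tested, every Dnmt1cKO library lay above every Control library in 2.59% and below in 0.486%. With 10 genes, nothing is read from these zeros. The median log2 fold change of the 10 variants was −0.095 (range −0.91 to 1.28), beside 0.22 over all genes. As a group they summed to 8601, 4915, 6397 and 4993 CPM in Control 1 to 4 and to 3530, 5120 and 10852 CPM in Dnmt1cKO. They made up 94.4% to 98.3% of all histone counts in Control and 57.6% to 87.8% in Dnmt1cKO, whereas Hist4h4 made up 0% to 0.293% and 7.63% to 41.3%, and cluster genes 1.66% to 5.59% and 1.10% to 4.53%. These are shares of counts and are not corrected for transcript length. All histone members together were 0.342% to 0.939% of a Control library and 0.681% to 1.08% of a Dnmt1cKO library.

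**Figure D4:**
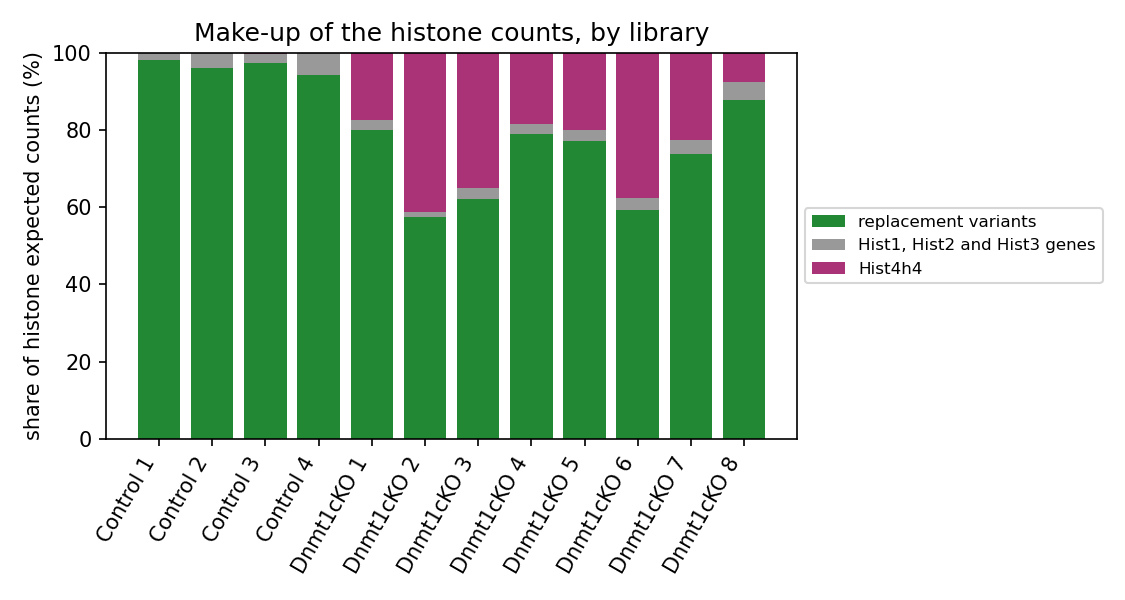
Share of histone expected counts, in percent, from replacement variants, cluster genes and Hist4h4 in each library. Hist4h4 is at most 0.293% in Control and between 7.63% (Dnmt1cKO 8) and 41.3% (Dnmt1cKO 2) in the mutants, while cluster genes stay between 1.10% and 5.59% in all libraries.

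H3f3a and H3f3b encode the same replacement H3 protein. H3f3a was at 5542, 2521, 3314 and 2195 CPM in Control 1 to 4 and at 1627, 2201 and 6508 CPM (lowest, median, highest) in Dnmt1cKO. H3f3b was at 1205, 1169, 887 and 1208 CPM in Control and at 1024, 1622 and 2093 CPM in Dnmt1cKO, where 7 of 8 libraries lay above all Controls and Dnmt1cKO 2 did not. The log2 fold changes were −0.35 ± 0.34 (SE) and 0.51 ± 0.30 (SE), and neither passed the test (adjusted p 0.629 and 0.389, edgeR). The ratio of H3f3a to H3f3b in CPM, a ratio within each library, was 4.60, 2.16, 3.74 and 1.82 in Control and 0.789 to 4.10 in Dnmt1cKO, where Dnmt1cKO 8 alone exceeded 1.82.

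Of the H2A variants, H2afz and H2afv encode forms of H2A.Z, found at promoters. H2afz was at 844, 360, 554 and 677 CPM in Control and at 364, 413 and 1325 CPM in Dnmt1cKO, and H2afv at 198, 166, 130 and 14.2 CPM against 65.2, 111 and 324 CPM. The groups overlapped in both, and Dnmt1cKO 8 had the highest level of each. H2afx, the variant that is phosphorylated at DNA breaks, was at 43.6, 48.2, 102 and 0 CPM in Control and at 22.9, 48.2 and 67.0 CPM in Dnmt1cKO. The log2 fold changes were −0.12 (H2afz), 0.03 (H2afv) and −0.07 (H2afx), each changing sign under another scaling (0.094 and 0.13 with library totals alone for H2afz and H2afx, and −0.055 with RLE factors for H2afv).

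The macroH2A genes H2afy and H2afy2 encode large variants known from the inactive X chromosome and silent genes. H2afy was at 123, 53.3, 346 and 472 CPM in Control 1 to 4 and at 68.2, 136.1 and 166 CPM in Dnmt1cKO. Control 3 and the library labelled Control 4 lay above all mutants, and the log2 fold change of −0.91 ± 0.48 (SE) turned to 0.63 without these libraries. H2afy2 was at 107, 55.0, 85.9 and 76.8 CPM in Control and at 96.3, 118 and 148 CPM in Dnmt1cKO (log2 fold change 0.55 ± 0.51 SE, not called). Here 3 Controls lay below every mutant library and Control 1 within their range.

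H2afj, an H2A variant gene 3828 bases from Hist4h4 on the opposite strand, was at 15.1, 26.0, 97.2 and 96.7 CPM in Control and at 1.57, 20.1 and 81.3 CPM in Dnmt1cKO. Its log2 fold change of −0.82 ± 0.79 (SE) turned to 0.75 without Control 3 and the library labelled Control 4. The linker variant H1f0, typical of cells that have stopped dividing, was at 519, 516, 881 and 253 CPM in Control and at 191, 337 and 736 CPM in Dnmt1cKO (log2 fold change −0.47, not called). H1fx stayed at or under 4.67 CPM in all libraries except Dnmt1cKO 8 (19.1 CPM).

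**Figure D5:**
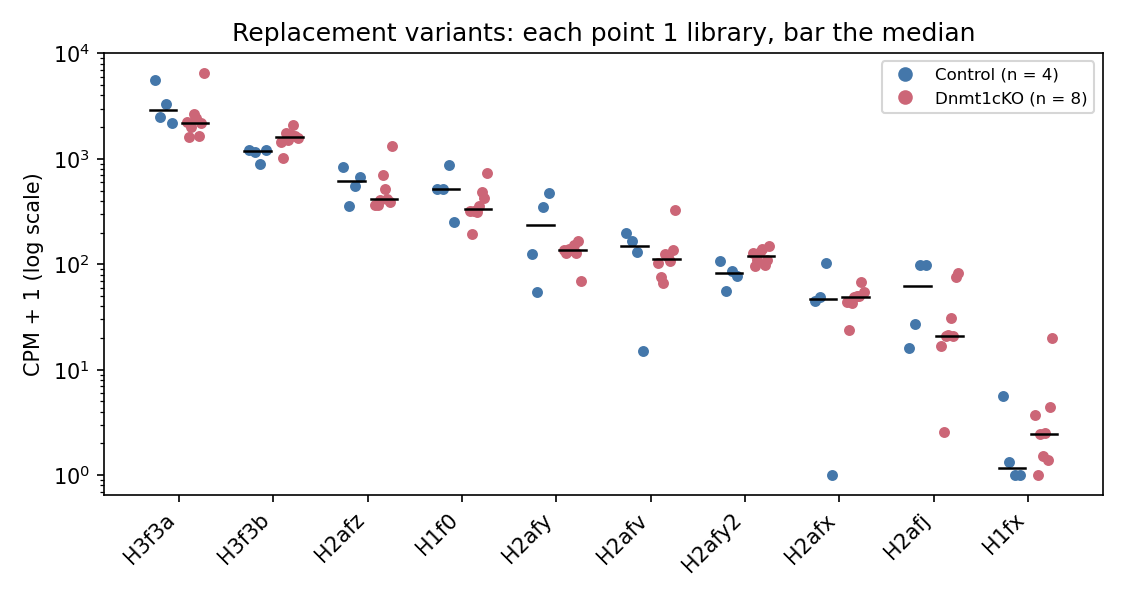
CPM + 1 on a log axis for the 10 replacement variants, each point a library and each bar the group median, with Control and Dnmt1cKO side by side. The groups overlap in every gene, and the highest Dnmt1cKO point of H3f3a (6508 CPM), H2afz (1325 CPM) and H2afv (324 CPM) is the same library, Dnmt1cKO 8.

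The 8 members known from germ cells (Hist1h1t, Hist1h2aa, Hist1h2ba, H1fnt, H1foo, H2afb1, H2afb2 and H2afb3), which package the genome of sperm and oocytes or their precursors, were next to absent. Only Hist1h2ba had a count, at 0.292 CPM in Dnmt1cKO 1 and 0.103 CPM in Dnmt1cKO 4, and none was tested.

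Of the other genes tested near Hist4h4, 0 were called, against 1.03% higher and 1.55% lower over all genes tested. With so few genes, nothing about the locus is read from this. Within 250000 bases 7 other genes were tested, H2afj among them, with log2 fold changes from −0.82 (H2afj) to 3.45 (Art4) and a lowest adjusted p of 0.192 (edgeR). Art4 encodes a surface protein of red blood cells, and its SE was 1.43. Wbp11, a splicing factor gene and the neighbour after H2afj, had a log2 fold change of 0.20 ± 0.56 (SE).

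The machinery that makes and processes histone messages was measured beside them. Of 31 tested genes for histone transcription, stem-loop processing and decay, 0 were called in either direction, with 2 above and 2 below Control at an unadjusted p under 0.05 (8.19% and 9.54% of all genes) and a median log2 fold change of 0.33, beside 0.22 over all genes. Over all genes tested, 1.03% were called higher and 1.55% lower. In 3 of the 31 every Dnmt1cKO library lay above every Control library, and in 0 below, against 2.59% and 0.486% of all genes tested. Slbp, whose protein binds the stem-loop, was at 162, 126, 63.3 and 19.9 CPM in Control and at 112, 158 and 216 CPM in Dnmt1cKO (log2 fold change 0.79 ± 0.51 SE). Npat, the cyclin-dependent kinase target that activates histone clusters in S phase, was at 34.4, 1.69, 33.9 and 2.84 CPM in Control and at 2.28, 40.5 and 54.6 CPM in Dnmt1cKO. Lsm11, a subunit of the RNP that cuts histone messages, was at 9.84 to 15.8 CPM in Control and 5.44 to 34.5 CPM in Dnmt1cKO. None of the 3 passed the test.

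Of 29 tested chaperone and chromatin assembly genes, 0 were called higher and 1 lower, against 1.03% and 1.55% of all genes tested. At an unadjusted p under 0.05 in edgeR, 1 was above and 4 below Control, against 8.19% and 9.54% of all genes. The median log2 fold change of the 29 was 0.064, beside 0.22 over all genes. The called gene was Ubn1, a partner of Hira in placing replacement H3, at 167, 306, 463 and 958 CPM in Control 1 to 4 and at 133, 165 and 220 CPM in Dnmt1cKO (log2 fold change −1.46, adjusted p 0.0449, edgeR). The call was lost in 10 of the 12 fits that each left out a library, with an adjusted p of up to 0.236 and a log2 fold change of −0.78 without the library labelled Control 4. Hira itself (0.72), the replacement H3 chaperone Daxx (−0.15) and its partner Atrx (−0.66) did not pass the test, as log2 fold changes. Neither did the replication-coupled assembly subunits Chaf1a (−0.20) and Chaf1b (−0.16), nor the H3-H4 chaperones Asf1b (0.45) and Nasp (0.12).

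Among 39 tested S phase and mitosis genes, whose activity normally accompanies cluster histone transcription, 0 were called higher and 1 lower. Of all genes tested, 1.03% were called higher and 1.55% lower. The median log2 fold change of the 39 was 0.69, beside 0.22 over all genes. Of the 39, 31 had a positive log2 fold change, against 7315 of the 12761 genes tested. At an unadjusted p under 0.05 in edgeR, 3 were above and 1 below Control, against 8.19% and 9.54% of all genes. In 4 of the 39 every Dnmt1cKO library lay above every Control library, against 2.59% of all genes. The called gene, Lig1, the ligase that joins Okazaki fragments, was at 127, 326, 522 and 2195 CPM in Control 1 to 4 and at 132, 146 and 159 CPM in Dnmt1cKO (log2 fold change −2.43, adjusted p 0.00214, edgeR). Without the library labelled Control 4 it was −1.06 with an adjusted p of 0.122. The S phase list summed to 3436 to 5382 CPM in Control and to 4144 to 4984 CPM in Dnmt1cKO, and these sums overlapped.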

How the data were processed

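RNA was sequenced in 4 Control and 8 Dnmt1cKO libraries, grouped by their genotype labels. Per the submitters' processing notes, the authors used RSEM 1.2.3, Bowtie 0.12.9 and bcl2fastq 2.17.1.14, with mm10 as the build. For the annotation, the mapping parameters and the use of strand, the details were not given in the sources used here. The deposited values are RSEM expected counts per gene, in which reads that match several genes are divided, and 60 of the 82 members had a fractional count. Per the labels' protocols, RNA was selected for poly(A), copied from random hexamers and PCR-amplified. Molecular identifiers are not mentioned, so limits from counts cover counting error only.

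Expected counts were rounded and tested with edgeR 4.0.16 in R 4.3.3 (quasi-likelihood F-test, robust, genotype as the only term, TMM factors, filterByExpr at its minimums of 10 counts and 15 in total), with Benjamini-Hochberg adjustment over all 12761 genes tested and a threshold of 0.05. No 2 libraries of a group agreed within counting noise (lowest chi-square per degree of freedom 28.9 over 34 pairs). Named members were those called, Hist4h4, the tested replacement variants, the 3 tested cluster genes of each protein type with the highest mean CPM, and germ-cell members with a count; genes outside the family were a fixed list and the called genes of 3 supporting lists. The members, lists and rules were chosen with earlier results of these data known, and lists are described by counts and medians, with no test. All 82 members were matched by symbol in GENCODE M21 and 76 to a RefSeq promoter (GRCm38.p6). Alternatives were RLE factors, library totals alone, no low-count filter, DESeq2 1.42.0, limma-voom 3.58.1 with quality weights, omission of libraries, 2 replicate blocks and, added after the data were seen, the H4 genes summed.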

Additional observations from a re-analysis of the deposited data

Results flagged for a closer look

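In 46 groups of libraries checked (each named member with counts, in each genotype), 18 times the highest or lowest library stood apart from the others by a gap large for the range of its group. Of these, 9 lay in Dnmt1cKO 8: H3f3a (6508 CPM), H2afz (1325), H2afv (324), H2afy (68.2, the lowest of its group), Hist1h2ag (74.7), Hist2h2aa2 (57.6), Hist1h4b (27.1), Hist3h2ba (26.8) and H1fx (19.1). Control 1 stood apart in Hist3h2a (27.7 CPM), Hist1h2bc (13.5), H1fx (4.67) and Hist1h1b (1.48), and it is the deepest Control library. Control 3 was high in Hist3h2ba (44.5 CPM) and low in H3f3b (887), and Control 2 was high in Hist1h4b (14.2). In Dnmt1cKO, Hist1h4n was highest in library 6 (16.6 CPM) and Hist2h3c1 in library 7 (8.23 CPM). Hist4h4 had no library that stood apart in either group. The cause of these gaps was not tested.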

How the results depend on the processing

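Hist4h4 was called higher in each fit that held it as a feature of its own except limma-voom (log2 fold change 8.38, adjusted p 0.134), with 7.61 to 8.85 when libraries were left out in turn (8.85 without Control 3). Members called higher (1) became 2 with DESeq2, 0 with limma-voom and 1 to 3 on leaving out libraries (3 without Control 1). Members called lower (0) became 1 with DESeq2 and 1 without the low-count filter (Hist1h3b). The cluster median ranged from 0.61 to 2.91 on leaving out libraries (2.91 without Control 1), and the replacement median was 0.29 without Control 3 and the library labelled Control 4.

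Over all genes, 198 were lower in the fit reported, against 726 with RLE factors, 47 with library totals alone, 1030 with DESeq2, 31 with limma-voom, 2 without both Controls and 36 to 494 on leaving out libraries (36 without the library labelled Control 4). The 132 higher genes became 487 with DESeq2, 8 with limma-voom, 45 without both Controls and 60 to 657 on leaving out libraries (657 without Control 1, 60 without the library labelled Control 4). The share of higher genes among those called was 40.0%, and it was 19.0% under RLE scaling and 70.6% under library totals, and the median log2 fold change of all genes was 0.22, 0.072 and 0.38.

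Same-numbered libraries did not deviate together (correlations −0.055 to 0.061 for title numbers and −0.046 to 0.068 for description codes), so the numbers were not taken to pair them. With title numbers as a replicate block 29 genes were lower and 21 higher, and with codes as the block 84 were lower and 137 higher. Hist4h4 was at 8.40 and 8.39. The block on title numbers turned the log2 fold change of H2afv (−0.21), H2afx (0.18), Daxx (0.47), Chaf1a (0.75), Hist1h2ag (0.029) and Chaf1b (1.57), and the block on codes that of Lsm11 (−0.080), H2afx (0.53), Daxx (0.39), Chaf1a (0.40), Hist1h4b (−1.17), Hist1h2ag (0.94), Hist3h2ba (1.43) and Chaf1b (1.82).

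Other genes whose log2 fold change turned were not called, in either setting. With RLE factors these were H2afv (−0.055), Lsm11 (−0.16) and Nasp (−0.43), and with library totals H2afx (0.13), H2afz (0.094), Daxx (0.053) and Chaf1a (0.072). With DESeq2 they were H2afv (−0.066), Lsm11 (−0.097), Nasp (−0.42) and Hist1h4b (−1.93). With limma-voom they were H2afv (−0.65), Lsm11 (−0.21), H2afx (0.19), Chaf1a (0.26), Hist1h4b (−2.38), H1fx (−0.16), H2afj (0.16), H2afy (0.46), Hist1h1b (−1.17), Hist1h2ag (1.85), Hist3h2ba (1.35) and Asf1b (−0.011). Without both Controls they were H2afv (−0.41), H2afx (0.092), Chaf1a (0.40), Hist1h4b (−0.69), H2afj (0.75), H2afy (0.63), Hist3h2ba (1.15), Asf1b (−0.39) and Atrx (0.057). Leaving out libraries in turn gave ranges that crossed 0 for H2afz (−0.38 to 0.083), Hist1h4b (−1.78 to 4.21), Chaf1b (−0.57 to 1.02), H2afx (−0.38 to 0.54), Hist3h2ba (−1.58 to 1.49), Daxx (−0.47 to 0.42), Chaf1a (−0.49 to 0.81), H2afv (−0.26 to 0.32) and Hist1h2ag (−1.14 to 0.31). The cause was not tested. Of the 63 cluster members 5 to 21 had a count in a Control library and 16 had enough counts to be tested, so a difference in the others was not detectable at this depth.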
